A study of Mus musculus with 8 samples.

Results

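Pi16 and Clec3b adventitial fibroblasts were taken as the fibroblasts of the mouse ascending thoracic aorta that stood highest on a 10-gene score, and 429 of the 48467 deposited barcodes belonged to them. Barcodes first had to hold at least 500 genes, at most 20% mitochondrial UMIs (unique molecular identifiers, each counting 1 captured transcript) and fewer than 10 haemoglobin UMIs. Fibroblasts were then kept by Dcn, which encodes the collagen-binding proteoglycan decorin, at 0.3% or more of a barcode's UMIs, with Acta2, Tagln and Myh11 together under 0.5% and at most 1 UMI of Pecam1, Cdh5 and Ptprc together. This left 1288 fibroblasts. Each was scored by the sum of natural log(1 + counts per 10000) over Pi16, Clec3b, Scara5, Pla1a and Sema3c, minus the same sum over Lum, Serpinf1, Tgfbi, F3 and Dio2. The 429 with the highest scores are the Pi16 and Clec3b fibroblasts, and they were set against the 429 with the lowest scores, called Lum-side fibroblasts, with 430 intermediate fibroblasts between them. Where values of both are given, the cells are also called Pi16-high and Lum-side cells. The cells were thus chosen by the measured levels of these 10 genes, which are given as a description.

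All animals were wild-type mice, 3 in number and 11, 12 and 13 weeks old, with no treatment, transgene or strain named in the labels, so the comparison is between cells of the same animals. Per the labels' protocols, the tissue was digested with type II collagenase (10 mg/mL) and elastase (1 mg/mL), depleted of dead cells and run through droplet single-cell 3' sequencing with hashtag antibodies, which carry a DNA barcode that names the animal. The 4 gene expression and 4 hashtag libraries are held in 1 matrix with a single barcode suffix, so the library of a barcode is not known and barcodes shared between libraries cannot be counted. Each hashtag marks 1 age and is read here as 1 animal.

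Fibroblasts that express Pi16 and Dpp4 are known from the adventitia and fascia of many mouse organs, where they sit around vessels and are often described as a shared fibroblast state from which more specialised fibroblasts can form. The adventitia is the outer coat of an artery, in which fibroblasts lay down collagen, microfibrils and proteoglycans and send signals to smooth muscle, endothelial and immune cells. The Lum side of the score is built from genes of matrix-rich fibroblasts: lumican (Lum) spaces collagen fibrils, Serpinf1 encodes the anti-angiogenic factor PEDF, Tgfbi an adhesion protein of the matrix, F3 tissue factor and Dio2 a thyroid hormone deiodinase.

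The deposited hashtag reference gives the oligonucleotides that tie a cell to an animal, shown because the spread and the tests over hashtag sums rest on them.
Hashtag 1, 11 weeks: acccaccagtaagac
Hashtag 2, 12 weeks: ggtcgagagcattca
Hashtag 3, 13 weeks: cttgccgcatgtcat
A single hashtag was called on 80 of the 429 Pi16 and Clec3b fibroblasts (18.6%) and 84 of the 429 Lum-side fibroblasts (19.6%), and several hashtags on 29 (6.76%) and 35 (8.16%). The hashtag signal was weak. Pi16 and Clec3b fibroblasts called for hashtag 1 had a median of 162 UMIs of that hashtag, against 83 in those without a call. For hashtag 2 the medians were 507.5 in called cells and 252 in cells without a call, and for hashtag 3 they were 558 and 254. Called cells also held the other hashtags, at medians above those of cells without a call. Cells called for hashtag 1 held medians of 310 and 304 UMIs of hashtags 2 and 3, more than of their own. Those called for hashtag 2 held 97.5 and 324.5 UMIs of hashtags 1 and 3, and those called for hashtag 3 held 94 and 292 of hashtags 1 and 2. Counts were summed per hashtag and group, from 31, 20 and 29 Pi16 and Clec3b fibroblasts and from 33, 24 and 27 Lum-side fibroblasts for hashtags 1, 2 and 3. The sums held 107011 to 195091 UMIs in Pi16 and Clec3b fibroblasts and 110509 to 146397 in Lum-side fibroblasts. Where hashtag calls are wrong, the spread over hashtag sums describes sets of cells and not animals.

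The matrix holds 166848700 gene UMIs, and 27589 barcodes passed the limits on genes and mitochondrial UMIs. Pi16 and Clec3b fibroblasts were deeper than Lum-side fibroblasts, with a median of 5596 UMIs and 2088 genes against 4212 UMIs and 1704 genes. Their median mitochondrial share was 8.51%, against 10.1% in Lum-side fibroblasts. The median count of haemoglobin UMIs was 3 in each. Levels are therefore given as CPM (counts scaled to a common total), and shares of cells are given after thinning every cell to 1000 UMIs.

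The 5 genes that named the cells behaved as the rule demands, and their levels are a description. Pi16, a secreted peptidase inhibitor-like protein, stood at 2614, 3056 and 3029 CPM in the Pi16 and Clec3b fibroblasts of hashtags 1, 2 and 3, against 328, 163 and 364 CPM in Lum-side fibroblasts. Clec3b, the plasminogen-binding lectin tetranectin, stood at 3873, 3906 and 3547 CPM in Pi16-high cells, against 587, 208 and 528 CPM in Lum-side cells. In neither gene did the 3 sums of either group reach those of the other. Scara5, a ferritin receptor, had 579, 598 and 656 CPM in Pi16 and Clec3b fibroblasts and 109, 190 and 216 CPM in Lum-side fibroblasts, the narrowest gap of the 5. Pla1a, a phospholipase that acts on phosphatidylserine, had 286, 355 and 308 CPM in Pi16-high cells, against 6.83, 9.05 and 0 CPM in Lum-side cells. Sema3c, a secreted semaphorin, had 764, 888 and 892 CPM in Pi16-high cells, against 6.83, 45.2 and 0 CPM in Lum-side cells. The last pair came close to an on and off pattern between the ends of the score, while Scara5 and Clec3b did not.

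On the other side of the score, Lum had 471, 439 and 323 CPM in Pi16 and Clec3b fibroblasts, against 2698, 3330 and 3333 CPM in Lum-side fibroblasts. Serpinf1 had 322, 617 and 400 CPM in Pi16-high cells, against 1209, 1231 and 1541 CPM in Lum-side cells. Tgfbi averaged 29.5 ± 12.3 CPM in Pi16 and Clec3b fibroblasts and 357 ± 107 CPM in Lum-side fibroblasts (SD, n = 3 hashtags each). F3 averaged 58.3 ± 18.3 CPM in Pi16-high and 535 ± 85.0 CPM in Lum-side cells, and Dio2 averaged 10.8 ± 6.51 CPM in Pi16-high and 171 ± 72.4 CPM in Lum-side cells. Lum and Serpinf1 were thus lower in Pi16 and Clec3b fibroblasts and still present: 77.6% of these cells held a Lum UMI and 83.7% a Serpinf1 UMI before thinning. At 1000 UMIs per cell, Lum was still found in 38.0% of them, against 88.6% of Lum-side fibroblasts and 2.79% or less of the barcodes gated as smooth muscle, endothelial or leukocyte.

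**Figure D1:**
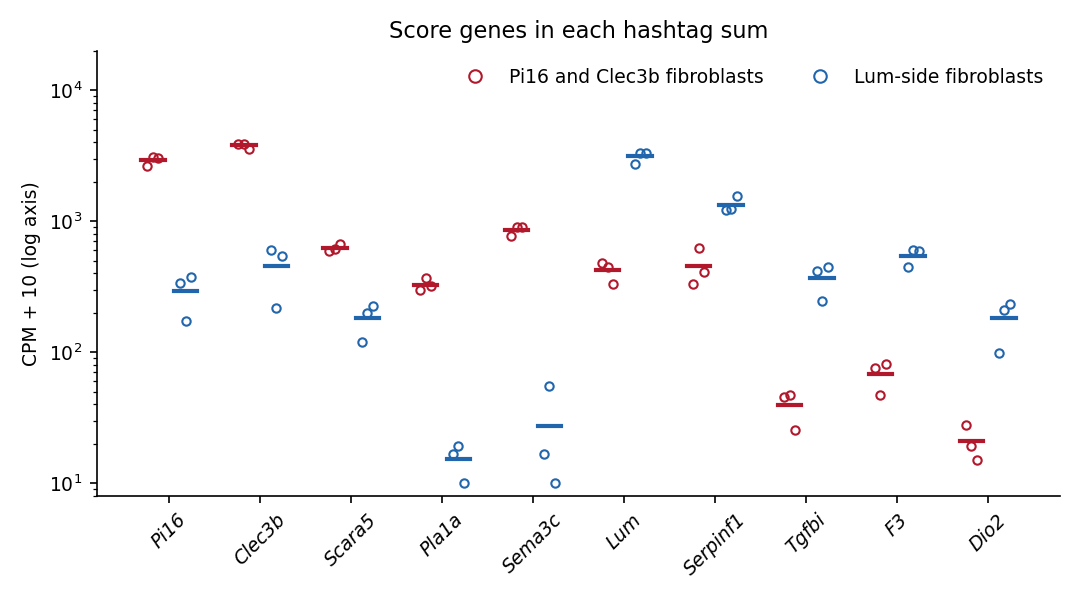
CPM of total UMIs plus 10 (log axis) of the 10 score genes in the 3 hashtag sums (open circles) and their mean (bar) in Pi16 and Clec3b fibroblasts (red, left) and Lum-side fibroblasts (blue, right). The 5 genes at the left chose Pi16 and Clec3b fibroblasts and the 5 at the right Lum-side fibroblasts, and Pla1a and Sema3c lie lowest in Lum-side fibroblasts.

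Before thinning, the markers were found together in single cells. The rule chose the cells by these same genes and Pi16 and Clec3b fibroblasts were deeper, so the counts are a description. All 5 were detected in 217 Pi16 and Clec3b fibroblasts (50.6%), 4 in 148, 3 in 57 and 2 in 7. In Lum-side fibroblasts, 0 cells held all 5, 4 cells held 4, and 58 cells held none. In intermediate fibroblasts, 3 cells held all 5, 44 held 4 and 12 held none. The score showed no gap at the limits between the groups. The 20 Pi16 and Clec3b fibroblasts nearest the limit scored 2.97 to 3.32, with 1290 CPM of Pi16, 3408 CPM of Clec3b and 1032 CPM of Lum. The 20 cells just outside scored 2.72 to 2.96, with 1032, 3437 and 919 CPM. The limit therefore falls within a gradient, and cells on its sides had nearby levels of these 3 genes.

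**Figure D2:**
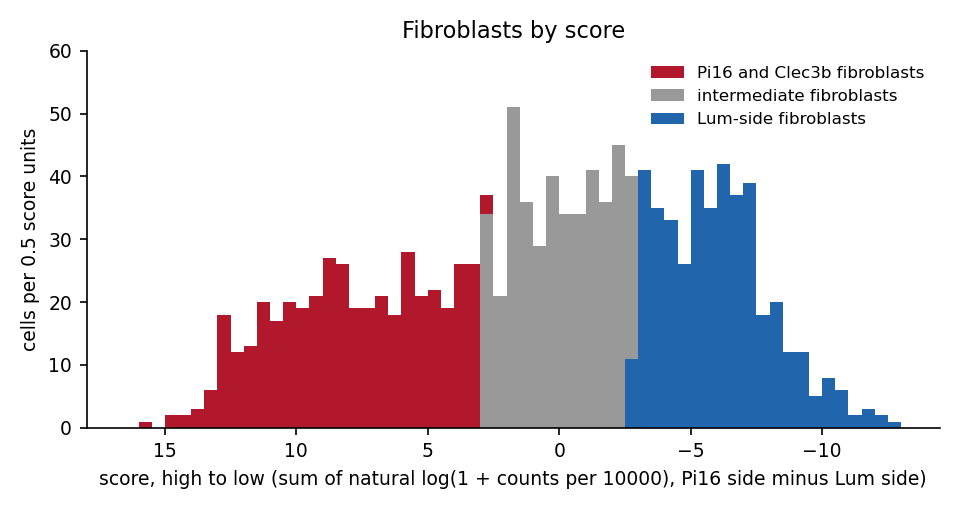
Number of fibroblasts per 0.5 score units, with the score running high to low from left to right, for Pi16 and Clec3b (red, 429 cells), intermediate (grey, 430 cells) and Lum-side fibroblasts (blue, 429 cells). Scores run from 16.0 to -12.7 without a gap at the limits between the groups.

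Whether a score gene follows the others was asked by leaving it out, scoring the cells on the other 9 and testing it between the cells with the highest and lowest new scores, again 3 groups of equal size. The test was edgeR's quasi-likelihood test on sums per hashtag, with the hashtag as a block and Benjamini-Hochberg adjustment over all genes fitted, called at an adjusted p under 0.05. Of the 10 genes, 9 passed, and Dio2 was too low to be tested. Pi16 had 2396, 2567 and 2578 CPM in the group highest on the score without it and 408, 175 and 462 CPM in the lowest group, a log2 difference of 2.76 ± 0.21 (SE; edgeR adjusted p 2.3e-08). Scara5 had the smallest difference, 1.16 ± 0.20 on the log2 scale (edgeR adjusted p 4.4e-04), while Pla1a and Sema3c had the largest, 5.52 ± 0.48 and 5.24 ± 0.33. Lum was lower by -2.42 ± 0.24 and Tgfbi by -2.99 ± 0.32. The 10 genes had been chosen with earlier results of these cells known, so these tests describe how closely the genes run together and are not independent evidence of a separate cell type.

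Detection at equal depth set the markers against cells of other types. A Pi16 UMI was found in 81.6% of Pi16 and Clec3b fibroblasts thinned to 1000 UMIs (exact 95% interval 77.6 to 85.1%) and in 21.4% of Lum-side fibroblasts (17.7 to 25.6%). Among barcodes gated as smooth muscle, endothelial or leukocyte and low in Dcn, the share was 0.756%, 2.09% and 1.23% (3308, 717 and 162 barcodes, median depths 7621, 3068 and 3545 UMIs before thinning). Lum-side fibroblasts thus held Pi16 RNA above that background. Sema3c was found in 51.0% of Pi16 and Clec3b fibroblasts and 3.50% of Lum-side fibroblasts. The smooth muscle, endothelial and leukocyte gates had 8.16%, 4.04% and 4.32%, so the share in Lum-side fibroblasts did not exceed that of any gate. Whether the smooth muscle share is free RNA or RNA of these cells was not tested. Pla1a was found in 21.4% of Pi16 and Clec3b fibroblasts, in 0.233% of Lum-side fibroblasts and in 0 barcodes of the smooth muscle, endothelial and leukocyte gates. Intervals cover counting error only.

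**Figure D3:**
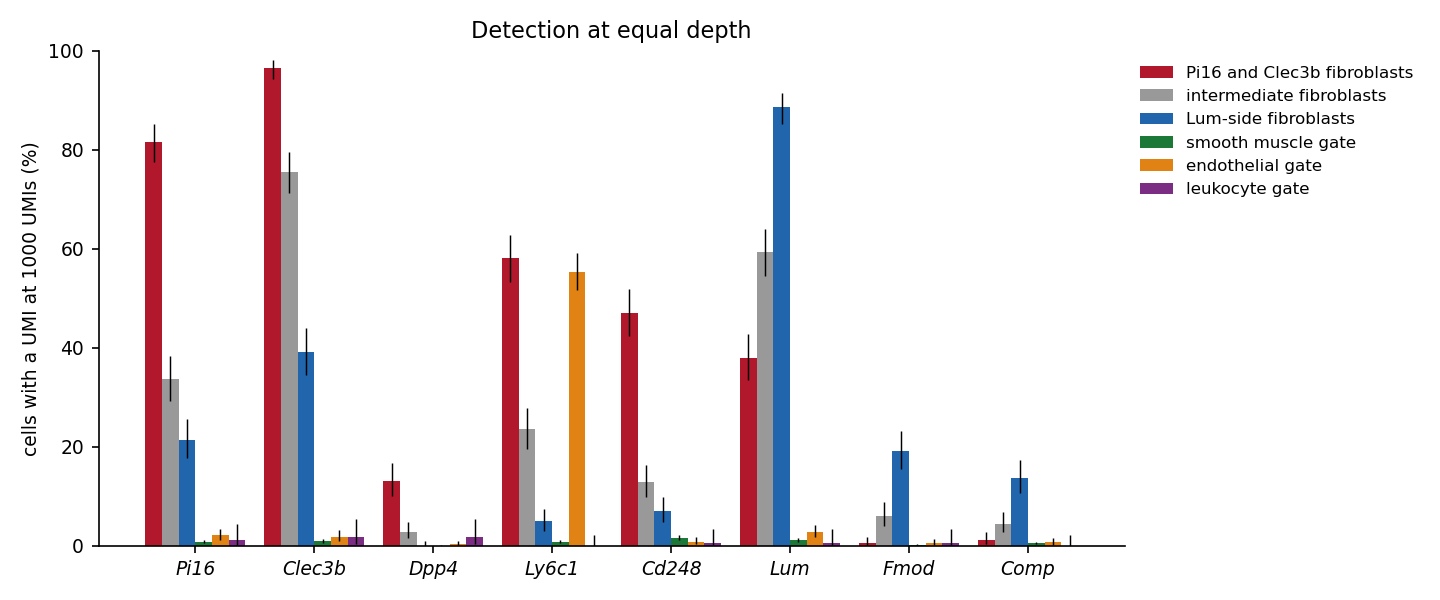
Percentage of cells with at least 1 UMI of a gene after thinning to 1000 UMIs per cell, with exact 95% binomial intervals, in Pi16 and Clec3b fibroblasts, intermediate fibroblasts, Lum-side fibroblasts and 3 gates of other cells. Pi16, Clec3b, Dpp4 and Cd248 are most frequent in Pi16 and Clec3b fibroblasts, and Ly6c1 is frequent in the endothelial gate too.

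The label was checked against markers of other cell types. In Pi16 and Clec3b fibroblasts, 5 of 5 general fibroblast markers were detected, with a summed level of 23240 to 26354 CPM over the hashtags, against 28740 to 33518 CPM in Lum-side fibroblasts. Smooth muscle markers (7 of 7 detected in each) summed to 1507 to 1743 CPM in Pi16-high and 1749 to 2108 CPM in Lum-side cells. The rule itself required Dcn, one of the fibroblast markers, and bounded 3 of the 7 smooth muscle markers, so these sums are in part set by the choice of cells. Acta2 fell by 0.50 and Myh11 rose by 0.67 on the log2 scale. The rule bounded Acta2, Tagln and Myh11 together, so these values are a description and no test is read from them. Endothelial markers (6 of 6) summed to 28.0 to 65.6 CPM in Pi16-high cells, against 13.7 to 26.0 CPM in Lum-side cells, and over all cells, whatever their hashtag, to 17.2 CPM in Pi16-high and 22.5 CPM in Lum-side cells. Pecam1 and Cdh5, which are among them, were bounded by the rule. Macrophage markers summed to 5.97 to 37.4 CPM in Pi16-high cells (5 of 6, Adgre1 at 0), against 18.1 to 95.6 CPM in Lum-side cells (6 of 6), and over all cells to 27.0 CPM in Pi16-high and 29.4 CPM in Lum-side cells. Mesothelial markers reached 167 CPM in the Pi16 and Clec3b fibroblasts of hashtag 1 and 0 and 15.4 CPM in those of hashtags 2 and 3, against 0 to 36.2 CPM in Lum-side fibroblasts. Pericyte markers (5 of 5 in each) summed to 125 to 272 CPM in Pi16-high cells, against 478 to 745 CPM in Lum-side cells, and of them Abcc9, a potassium channel subunit, fell by 2.01 on the log2 scale (edgeR adjusted p 1.1e-05). The part of these levels in the differences below was not tested.

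The Pi16 and Clec3b share of fibroblasts lay between 28.6 and 34.8% over the 3 hashtags. It was 34.8% in hashtag 1 (31 of 89 cells, exact 95% interval 25.0 to 45.7%), 28.6% in hashtag 2 (20 of 70, 18.4 to 40.6%) and 34.1% in hashtag 3 (29 of 85, 24.2 to 45.2%). The rule took 429 of the 1288 fibroblasts, so the share over all of them is set by the rule and is not a result. Only its spread over hashtags is described. The intervals overlap, and with 1 animal per age no test between ages was made.

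Outside the score, 2232 genes were tested between Pi16 and Clec3b fibroblasts and Lum-side fibroblasts. Dcn, Acta2 and Myh11, which the rule used to choose fibroblasts, are counted among them. Of the 2232 genes, 259 were higher (11.6%) and 228 lower (10.2%) at an edgeR adjusted p under 0.05. The direction was the same in 3 of 3 hashtags for 257 of the higher and 224 of the lower genes. The intermediate fibroblasts lay between the ends for 213 and 192 of them. In the barcodes that did not enter the test, 349 Pi16 and Clec3b fibroblasts and 345 Lum-side fibroblasts without a single hashtag, 258 of the higher and 227 of the lower genes had the same direction. At least a 4-fold difference was seen in 71 higher and 67 lower genes, and the median over all genes tested was -0.02 on the log2 scale. The choice of cells by a score fixes that genes running with the score will differ, so the calls describe the ends of a gradient. Fewer genes were called with DESeq2 (147 higher and 121 lower) and in cells with fewer than 3 haemoglobin UMIs (64 and 61), where a sum held 8 to 13 cells.

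**Figure D4:**
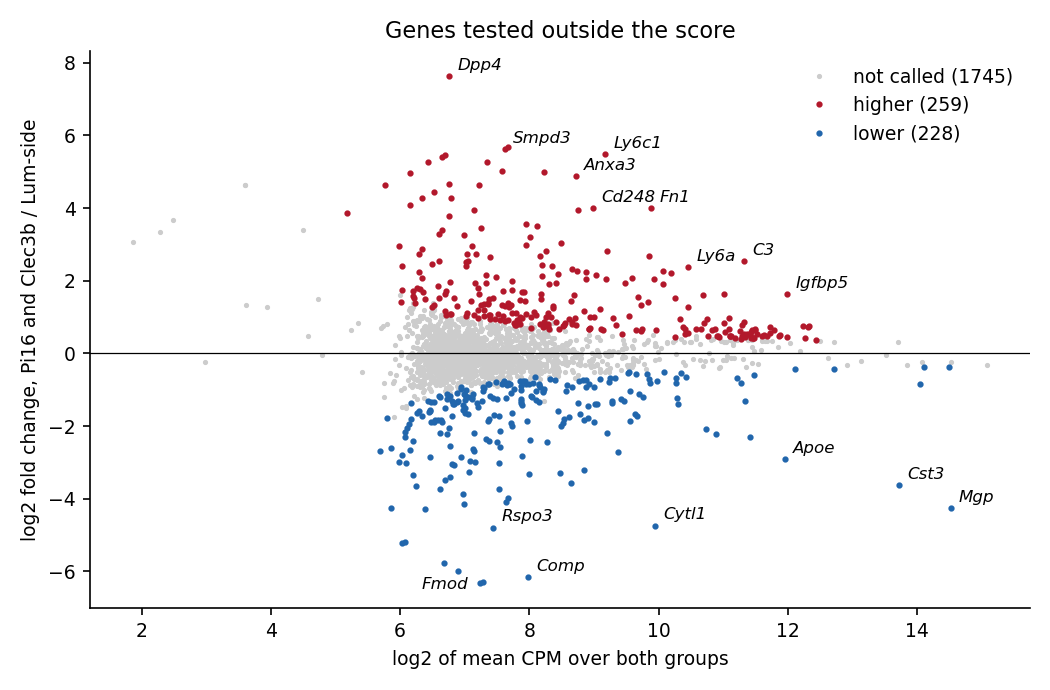
Log2 fold change of Pi16 and Clec3b fibroblasts over Lum-side fibroblasts (y axis) against log2 mean CPM over both (x axis) for the 2232 genes tested outside the score, with 259 higher genes in red, 228 lower in blue and the others in grey. Dpp4 lies highest and Fmod among the lowest, and Mgp and Cst3 are lower at high expression.

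Among the genes with the largest rise was Dpp4, the cell-surface dipeptidyl peptidase also known as CD26. It had 227, 179 and 245 CPM in the Pi16 and Clec3b fibroblasts of hashtags 1, 2 and 3, and 0 CPM in each sum of Lum-side fibroblasts. With 86 UMIs against 0, it was at least 22.7-fold higher in these sums, taking 3 UMIs over the 3 sums of Lum-side fibroblasts as the floor. The size depended on the processing: its log2 fold change was 7.64 here and 0.95 to 8.22 over 18 alternatives, with the call kept in each. Over all cells, 53.8% of Pi16 and Clec3b fibroblasts held a Dpp4 UMI before thinning and 13.1% after it, against 0 of 429 Lum-side fibroblasts, which allows a share of cells with a UMI of up to 0.699%. Ly6c1, a GPI-anchored surface protein of the Ly6 family, had 1016, 1285 and 1075 CPM in Pi16-high cells, against 8.44, 23.2 and 44.1 CPM in Lum-side cells. Its log2 fold change was 5.48 ± 0.33 (edgeR adjusted p 4.9e-11), with 6.19 without hashtag 3 and 2.42 to 6.27 over 19 alternatives. Over all cells Ly6c1 had 2528 UMIs in Pi16-high and 74 in Lum-side cells, a ratio of 26.1, against 48.1 in the hashtag sums. Ly6c1 is also an endothelial gene, found in 55.4% of the endothelial gate after thinning, against 58.0% of Pi16 and Clec3b fibroblasts and 4.90% of Lum-side fibroblasts.

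Several other genes with the largest rise had 3 UMIs or fewer in the hashtag sums of Lum-side fibroblasts. Plac8 had 154 UMIs in the Pi16 and Clec3b sums and 2 in Lum-side fibroblasts, a ratio of 61.1 per UMI sequenced (95% counting interval 16.6 to 509). Smpd3, the neutral sphingomyelinase, had 151 UMIs in Pi16-high and 2 in Lum-side cells, a ratio of 59.9 (16.3 to 499). Tmem100, a membrane protein induced by BMP signalling in endothelium, had 121 in Pi16-high and 2 in Lum-side cells (ratio 48.0, 13.0 to 401), and Adgrd1, an adhesion G protein-coupled receptor, 138 and 3 in these groups (36.5, 12.2 to 179). In Pi16-high cells Akr1c18, a progesterone-reducing hydroxysteroid dehydrogenase, had 81 UMIs, Ifi205 71, the sialic acid hydroxylase Cmah 65, the glycosyltransferase Galnt16 54, the actin-binding drebrin gene Dbn1 76 and Tnfaip2 41. In Lum-side cells Dbn1 had 2 UMIs and the other 5 genes had 1 each. Over all cells, with or without a hashtag, Akr1c18 had 550 UMIs in Pi16-high and 1 in Lum-side cells, and Smpd3 had 767 in Pi16-high and 4 in Lum-side cells. The call of Cmah was lost with a score of the 5 Pi16-side genes alone (0.33). The ratio over all cells was smaller than in the hashtag sums for Plac8 (11.6, with 759 UMIs in Pi16-high and 50 in Lum-side cells), Tmem100 (12.6, with 610 in Pi16-high and 37 in Lum-side cells), Dbn1 (6.84, with 349 in Pi16-high and 39 in Lum-side cells) and Galnt16 (9.56, with 200 in Pi16-high and 16 in Lum-side cells). The wide intervals show that the size of these ratios is poorly known. Each gene was higher in 3 of 3 hashtags, but that was a condition for being named here. With 3 UMIs or fewer in the Lum-side sums, these genes entered the test through their counts in the other cells. Without hashtag 1 the log2 fold changes of Plac8, Smpd3 and Tnfaip2 were 8.41, 8.38 and 6.76, against 5.69, 5.63 and 4.64 with all hashtags, and those of Ifi205, Galnt16 and Adgrd1 were 4.51, 4.24 and 4.36. Without hashtag 3 those of Ifi205, Galnt16, Akr1c18, Cmah and Adgrd1 were 7.78, 6.98, 7.14, 7.14 and 6.03, against 5.41, 4.98, 5.47, 5.26 and 5.01. That of Tmem100 was 8.03 without hashtag 2 and 4.67 without hashtag 3, against 5.27. The lowest values over the alternatives were 2.13 for Plac8, 2.32 for Smpd3, 1.56 for Tnfaip2 and 1.55 for Ifi205. They were 3.21 for Tmem100, 2.66 for Adgrd1, 3.95 for Galnt16, 5.03 for Akr1c18 and 3.27 for Dbn1.

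Pcsk6 and Anxa3 had more UMIs. Pcsk6, a proprotein convertase that activates secreted growth factors, had 548, 581 and 616 CPM in Pi16 and Clec3b fibroblasts and 16.9, 11.6 and 22.0 CPM in Lum-side fibroblasts (log2 fold change 5.01 ± 0.37, edgeR adjusted p 1.1e-09). Anxa3, a phospholipid-binding annexin, had 797, 816 and 836 CPM in Pi16-high cells, against 25.3, 46.4 and 11.0 CPM in Lum-side cells (4.88 ± 0.35, edgeR adjusted p 4.9e-10). For each gene the 3 hashtag sums were close to one another within Pi16 and Clec3b fibroblasts, and the groups were far apart. Over all cells the ratios were smaller, at 19.0 for Pcsk6 and 20.5 for Anxa3, against 35.7 and 31.2 in the hashtag sums.

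The list of universal adventitial fibroblast genes, drawn from what is known of Pi16 and Dpp4 fibroblasts in other mouse organs, had 20 genes. Of these, 17 were tested and all 17 were higher, with a median log2 fold change of 2.83 against -0.02 over all genes tested, of which 11.6% were higher, while Dact2, Uchl1 and Procr were too low to test. The list holds genes known to mark these cells and was chosen with earlier results of these data known, so it is no independent evidence. Cd248, the pericyte and fibroblast antigen endosialin, had 782, 1128 and 955 CPM in Pi16-high cells, against 50.6, 69.6 and 55.1 CPM in Lum-side cells (log2 fold change 4.01 ± 0.27). Ly6a, the surface antigen Sca-1, had 1980, 2648 and 2477 CPM in Pi16-high cells, against 565, 441 and 330.5 CPM in Lum-side cells (2.38 ± 0.20). Tppp3, known from tendon sheath progenitors, had 106 UMIs in Pi16-high and 3 in Lum-side cells (ratio 28.0, 9.33 to 138), and its log2 fold change was 7.79 without hashtag 2, against 4.63. Over all cells Tppp3 had 542 UMIs in Pi16-high and 68 in Lum-side cells, a ratio of 6.10. The log2 fold change of Tppp3 ran from 2.69 to 7.79 over 18 alternatives.

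The list of genes of the other main fibroblast state of mouse organs, the Col15a1 type found in parenchyma, had 18 of 20 genes tested. There, 13 were lower, 2 higher and 3 not called, with a median of -1.49 on the log2 scale, against 10.2% lower and 11.6% higher over all genes tested. Mgp, the matrix Gla protein that holds back calcification, had 1622, 2089 and 3413 CPM in Pi16 and Clec3b fibroblasts, against 35690.3, 51356 and 46903 CPM in Lum-side fibroblasts. It fell by 4.26 on the log2 scale (SE 0.18, edgeR adjusted p 4.6e-14), and the groups did not overlap. A Mgp UMI was found in 70.2% of thinned Pi16 and Clec3b fibroblasts and 99.1% of Lum-side fibroblasts. The smooth muscle, endothelial and leukocyte gates had 97.3%, 83.1% and 80.2%, so the share in Pi16 and Clec3b fibroblasts did not exceed that of any gate. Whether the Mgp share of the gates is free RNA or RNA of these cells was not tested. Apoe, the lipid carrier apolipoprotein E, had 1790, 436 and 691 CPM in Pi16-high cells, against 7722, 7732 and 5409 CPM in Lum-side cells (log2 fold change -2.92 ± 0.27, and -3.54 without hashtag 1). Col15a1, a collagen of the basement membrane zone, had 43.8, 33.5 and 62.9 CPM in Pi16-high cells, against 540, 383 and 463 CPM in Lum-side cells (-3.31 ± 0.35). G0s2, an inhibitor of triglyceride lipase, averaged 22.5 ± 18.5 CPM in Pi16-high and 386 ± 52.9 CPM in Lum-side cells (-3.99 ± 0.38, and -4.73 without hashtag 1), and over all cells the ratio of Lum-side to Pi16-high cells was 9.32 for G0s2, against 16.3 in the hashtag sums. The log2 fold change ran from -3.61 to -1.47 over 19 alternatives for Apoe and from -5.19 to -2.66 over 18 for G0s2.

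Among the genes with the largest fall were Fmod, Comp and Cytl1. Fmod, the collagen-binding proteoglycan fibromodulin, had 1 UMI in their 3 sums and 88 in Lum-side fibroblasts, a ratio of Lum-side to Pi16 and Clec3b fibroblasts of 111 (95% counting interval 19.4 to 4433). Comp, the cartilage oligomeric matrix protein, had 2 UMIs in Pi16-high and 145 in Lum-side cells (91.4, 24.9 to 762). Cytl1, a secreted protein first known from cartilage and blood progenitors, had 58.5, 179 and 6.29 CPM in Pi16-high cells, against 2802, 1878 and 980 CPM in Lum-side cells (log2 fold change -4.74 ± 0.46, and -5.83 without hashtag 2). The spread between hashtag sums was wide for Cytl1 in each group, and the groups did not overlap. Without hashtag 1, Fmod and Comp had log2 fold changes of -8.00 and -8.62, against -6.31 and -6.16, while Fmod stood at -5.67 without hashtag 3 and Comp at -5.43 without hashtag 2. At equal depth, Fmod was found in 0.466% of Pi16 and Clec3b fibroblasts and 19.1% of Lum-side fibroblasts, and Comp in 1.17% of Pi16-high and 13.8% of Lum-side cells. Phex, an endopeptidase of phosphate balance, Ccn5, a matricellular protein, Crispld1 and Tmem204 had 1, 1, 2 and 5 UMIs in Pi16-high cells and 66, 58, 33 and 70 in Lum-side cells. The log2 fold change of Phex was -5.98, with -8.09 without hashtag 1 and -5.08 without hashtag 3, and those of Ccn5 and Crispld1 were -5.77 and -4.25, with -7.24 and -6.50 without hashtag 3. Over all cells the ratios of Lum-side to Pi16-high cells were smaller, at 65.5 for Fmod, 56.2 for Comp, 14.1 for Phex and 31.2 for Ccn5. The 5 chondrocyte and tendon markers summed to 35.9 to 65.4 CPM in Pi16-high cells (3 of 5 detected, Tnmd and Chad at 0) and 72.4 to 171 CPM in Lum-side cells (4 of 5, Acan at 0), and Sox9, the cartilage transcription factor, fell by 1.56 on the log2 scale (edgeR adjusted p 0.035).

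Among proteoglycans and matricellular proteins, all 18 genes tested were called, 7 higher and 11 lower. Over all genes tested 11.6% were higher and 10.2% lower, and the counts of this and each following list are to be read against those shares. The lists were chosen with earlier results of these data known, so their counts are a description. Fn1, the matrix glycoprotein fibronectin, had 1747, 1721 and 1886 CPM in Pi16 and Clec3b fibroblasts, against 84.4, 139 and 121 CPM in Lum-side cells (log2 fold change 3.99 ± 0.27, edgeR adjusted p 2.6e-10). Bgn, the small proteoglycan biglycan, had 592, 771 and 610 CPM in Pi16-high cells, against 2616, 2794 and 2875 CPM in Lum-side cells (-2.08 ± 0.16, edgeR adjusted p 2.2e-09). Dcn, which the rule used to find fibroblasts, is counted among the 11 lower genes. It averaged 12102 CPM in Pi16-high and 21622 CPM in Lum-side cells. Thbs1, the adhesive glycoprotein thrombospondin 1, had 3 UMIs in Pi16-high and 48 in Lum-side cells. Its call was lost without hashtag 2, with a log2 fold change of -3.82 against -4.27, and it stood at -4.87 without hashtag 1. The group therefore divided by gene and not as a whole.

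Interstitial collagens also divided, with 2 higher, 2 lower and 5 of 9 not called. Col14a1, a fibril-associated collagen, had 1893, 2112 and 1974 CPM in Pi16-high cells, against 734, 893 and 848 CPM in Lum-side cells (log2 fold change 1.28 ± 0.17), and was not called with fewer than 3 haemoglobin UMIs (0.69). Col5a1, which nucleates fibrils, averaged 296 ± 9.64 CPM in Pi16-high and 112 ± 25.6 CPM in Lum-side cells (1.40 ± 0.27), and over all cells the ratio was 1.53 for Col5a1, against 2.74 in the hashtag sums. The chains of collagen I were lower: Col1a2 averaged 1782 ± 151 CPM in Pi16-high and 3198 ± 733 CPM in Lum-side cells (-0.83 ± 0.15) and Col1a1 averaged 888 ± 103 CPM in Pi16-high and 1579 ± 354 CPM in Lum-side cells (-0.82 ± 0.18, not called without hashtag 3, at -0.58). With a score of the 5 Pi16-side genes alone neither was called, at -0.04 for Col1a2 and -0.09 for Col1a1, and Col1a1 was also not called with at most 10% mitochondrial UMIs (-0.72) or fewer than 3 haemoglobin UMIs (-0.54). Col3a1, the other main fibrillar collagen of the adventitia, averaged 2517 ± 118 CPM in Pi16-high and 3083 ± 707 CPM in Lum-side cells and was not called.

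In the list of elastic fibre and microfibril genes, 3 of 12 were higher, 4 lower and 5 not called. Emilin2, an elastin-associated glycoprotein, had 248, 324 and 264 CPM in Pi16-high cells, against 8.44, 23.2 and 44.1 CPM in Lum-side cells (log2 fold change 3.46 ± 0.41, and 4.19 without hashtag 3). The fibulins were split. Efemp1 and Fbln2 rose by 2.15 ± 0.27 and 1.61 ± 0.25 (Fbln2 not called with fewer than 3 haemoglobin UMIs, at 0.93). Fbln5 fell by 1.04, averaging 486 ± 68.1 CPM in Pi16-high and 1022 ± 295 CPM in Lum-side cells. Fbln1 (-0.52) and Efemp2 (0.42) were not called. Fbn1, the microfibril protein fibrillin 1, is among the 17 genes of the first list that were higher. Mfap4, a microfibril-associated protein, had 73.1, 67.0 and 126 CPM in Pi16-high cells, against 667, 881 and 947 CPM in Lum-side cells (-3.20 ± 0.32). Ltbp4, which binds latent TGF-beta, averaged 582 ± 79.3 CPM in Pi16-high and 730 ± 129 CPM in Lum-side cells and was not called.

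Basement membrane genes were higher in 4 of 8 cases, lower in 1 and not called in 3. Nid1, the laminin and collagen IV linker nidogen 1, had 1345, 1709 and 1754 CPM in Pi16 and Clec3b fibroblasts and 245, 336 and 176 CPM in Lum-side fibroblasts (log2 fold change 2.68 ± 0.22). The laminin chains Lama4 and Lamc1 rose by 2.16 ± 0.35 and 1.73 ± 0.28. Lamb1 averaged 177 ± 40.1 CPM in Pi16-high and 18.6 ± 22.8 CPM in Lum-side cells (3.30 ± 0.55, with 4.76 without hashtag 3 and 2.58 without hashtag 1). Lama4, Lamb1 and Lamc1 encode the 3 chains of a laminin trimer. Each was higher in 3 of 3 hashtags, as were 257 of all 259 higher genes. The other beta chain of the list, Lamb2, was lower, averaging 135 ± 19.9 CPM in Pi16-high and 335 ± 72.5 CPM in Lum-side cells (-1.35 ± 0.27). The alpha chain Lama2 was not called (-0.62).

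Of 10 collagen processing genes, 3 were higher, 2 lower and 5 not called. Pcolce2 and Pcolce both encode enhancers of procollagen C-proteinase. The log2 fold change was positive for Pcolce2 and negative for Pcolce. Pcolce2 had 1147, 1162 and 1113 CPM in Pi16-high cells, against 338, 174 and 375 CPM in Lum-side cells (log2 fold change 1.93 ± 0.22). Pcolce averaged 325 ± 37.7 CPM in Pi16-high and 550 ± 119 CPM in Lum-side cells (-0.77 ± 0.22), and was not called without hashtag 1 (-0.77) or without hashtag 3 (-0.53). The call of Pcolce was lost in 9 of 19 alternatives, DESeq2 (-0.76) among them. Bmp1, the proteinase that they enhance, rose by 1.11 ± 0.36 and was not called when any 1 hashtag was left out, at 0.92 to 1.29, nor with DESeq2 (1.18) or when hashtags were called on the ratio to background (0.93). Sfrp2, a secreted Frizzled-related protein, averaged 265 ± 73.2 CPM in Pi16-high and 767 ± 479 CPM in Lum-side cells (-1.41 ± 0.37). It was lower in 2 of 3 hashtags, with 270 CPM in Pi16-high and 264 CPM in Lum-side cells of hashtag 3, and Sfrp2 was not called without hashtag 2 (-0.69) or with DESeq2 (-1.41). Serpinh1, the collagen chaperone, averaged 769 ± 55.3 CPM in Pi16-high and 640 ± 64.9 CPM in Lum-side cells and was not called.

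Proteases and their inhibitors numbered 16, of which 3 were higher, 6 lower and 7 not called. Cst3, the secreted cathepsin inhibitor cystatin C, had 1900.0, 2101 and 2087 CPM in Pi16 and Clec3b fibroblasts, against 21968, 25922 and 27351 CPM in Lum-side cells (log2 fold change -3.63 ± 0.14, edgeR adjusted p 4.4e-14). Adamts5, an aggrecan- and versican-cleaving protease, had 1747, 1855 and 1703 CPM in Pi16-high cells, against 253, 278 and 584 CPM in Lum-side cells (2.27 ± 0.24). Timp1, an inhibitor of metalloproteinases, averaged 40.8 ± 24.4 CPM in Pi16-high and 329 ± 157 CPM in Lum-side cells (-3.02 ± 0.35; not called with the ratio caller of hashtags, at -1.28), and Mmp3, stromelysin 1, averaged 218 ± 160 CPM in Pi16-high and 958 ± 507 CPM in Lum-side cells (-2.18 ± 0.23). Mmp2 and Serping1, gelatinase A and the C1 inhibitor, had 339 ± 27.8 and 2454 ± 190 CPM in Pi16 and Clec3b fibroblasts, against 467 ± 45.5 and 2098 ± 85.5 CPM in Lum-side cells, and were not called.

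**Figure D5:**
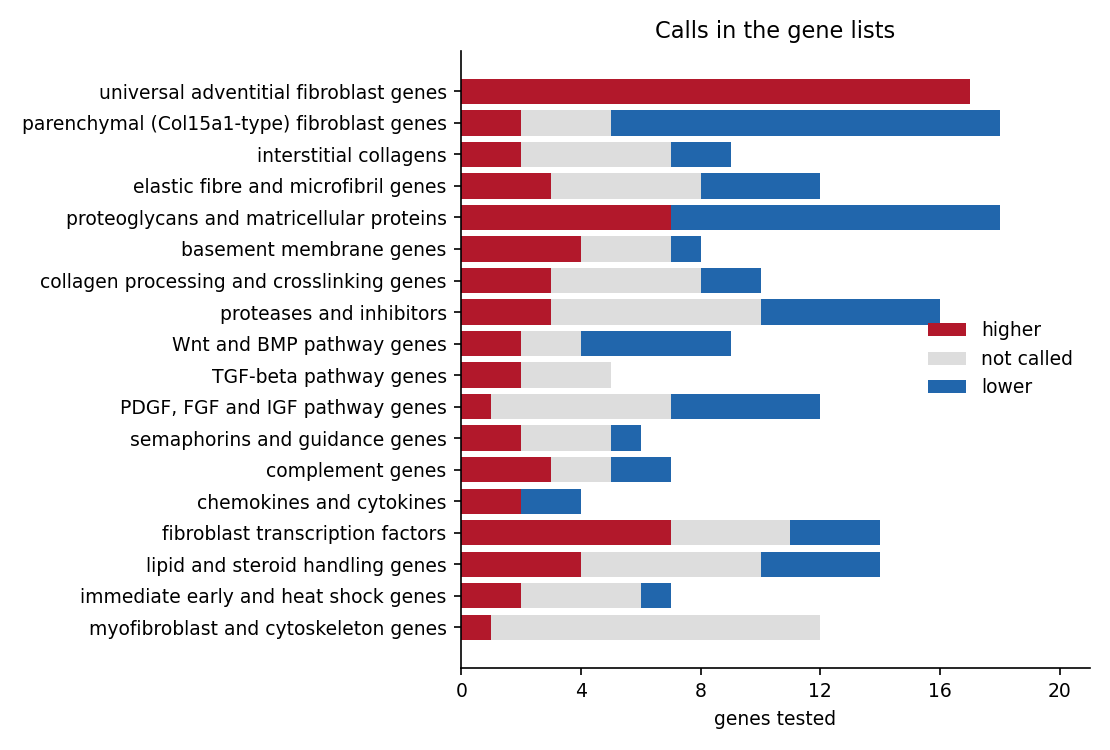
Number of genes tested in each of 18 lists, split into genes higher in Pi16 and Clec3b fibroblasts than in Lum-side fibroblasts (red), not called (grey) and lower (blue). The universal adventitial list holds only higher genes, most of the parenchymal list is lower, and most matrix and signalling lists hold genes of each kind.

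Of 9 Wnt and BMP pathway genes, 2 were higher, 5 lower and 2 not called. Rspo3, which amplifies Wnt signalling, had 21.9, 11.2 and 0 CPM in Pi16-high cells, against 346, 452 and 209 CPM in Lum-side cells (log2 fold change -4.80 ± 0.49, and -5.88 without hashtag 1). Dkk3, a divergent member of the Dickkopf family, had 43.8, 33.5 and 101 CPM in Pi16-high cells, against 760, 916 and 551 CPM in Lum-side cells (-3.56 ± 0.36, and -4.34 without hashtag 3). Id3, a target of BMP signalling, fell by 1.46 on the log2 scale. Sfrp4, a Wnt-binding protein, averaged 221 ± 102 CPM in Pi16-high and 37.5 ± 5.68 CPM in Lum-side cells (2.52 ± 0.60) and was not called without hashtag 2 (2.17) or with hashtags called at a positive quantile of 0.95 (0.46). Over all cells Sfrp4 had 345 UMIs in Pi16-high and 133 in Lum-side cells, a ratio of 1.98, against 5.69 in the hashtag sums. In the TGF-beta list, 2 of 5 genes tested were higher. Tgfbr2, the type II receptor, averaged 679 ± 17.5 CPM in Pi16-high and 347 ± 74.2 CPM in Lum-side cells (0.99 ± 0.22; not called with fewer than 3 haemoglobin UMIs, at 0.56), and the ligand Tgfb2 averaged 172 ± 84.7 CPM in Pi16-high and 46.5 ± 30.3 CPM in Lum-side cells (1.96 ± 0.46), which was 2.73 without hashtag 2 and not called without hashtag 3 (1.35). The call of Tgfb2 was lost in 4 of 18 alternatives.

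Of 12 PDGF, FGF and IGF pathway genes, 1 was higher, 5 lower and 6 not called, and the IGF-binding proteins moved apart. Igfbp5 had 4348, 7631 and 6330 CPM in Pi16-high cells, against 2895, 1797 and 1333 CPM in Lum-side cells (log2 fold change 1.63 ± 0.22). Intermediate fibroblasts averaged 5658 CPM of Igfbp5 in the hashtag sums, against 6103 CPM in Pi16-high cells. Over all cells the levels were 2149 CPM in intermediate and 4667 CPM in Pi16-high cells. Igfbp7 had 892, 1084 and 798 CPM in Pi16-high cells, against 3882, 4428 and 5265 CPM in Lum-side cells (-2.30 ± 0.17). Igfbp3 and the neurotrophin Ntf3 had 1 UMI each in Pi16-high cells, against 39 and 38 in Lum-side cells, with ratios of Lum-side to Pi16 and Clec3b fibroblasts of 49.2 (8.32 to 1992) and 47.9 (8.10 to 1942), and without hashtag 1 their log2 fold changes were -6.77 and -7.12, against -5.22 and -5.19. Over all cells the ratio was 6.36 for Igfbp3 and 11.7 for Ntf3. Igfbp3 was highest in intermediate fibroblasts, which averaged 229 CPM in the hashtag sums, against 129 CPM in Lum-side cells. Over all cells its levels were 218 CPM in intermediate and 133 CPM in Lum-side cells. Pdgfra, the general fibroblast receptor for PDGF, averaged 476 ± 108 CPM in Pi16-high and 581 ± 80.1 CPM in Lum-side cells and was not called. The growth factor Mdk (midkine) averaged 21.4 ± 8.37 CPM in Pi16-high and 379 ± 67.0 CPM in Lum-side cells (-4.08 ± 0.38).

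Guidance genes outside the score included 2 higher, 1 lower and 3 not called of 6. Sema3d, a secreted semaphorin like Sema3c, had 373, 324 and 346 CPM in Pi16-high cells, against 177, 174 and 165 CPM in Lum-side cells (log2 fold change 1.01 ± 0.24). Its call was lost in 4 of 19 alternatives: DESeq2 (1.02), the ratio caller of hashtags (0.59) and the limits of 10% mitochondrial UMIs (1.02) and fewer than 3 haemoglobin UMIs (1.20). Slit3, a Robo ligand, averaged 290 ± 24.5 CPM in Pi16-high and 136 ± 38.3 CPM in Lum-side cells (1.11 ± 0.27; not called in 6 of 18 alternatives, among them without hashtag 1, at 0.85). Nrp1, a receptor for class 3 semaphorins, averaged 196 ± 49.1 CPM in Pi16-high and 398 ± 96.0 CPM in Lum-side cells (-1.04 ± 0.27; not called in 5 of 19 alternatives, among them without hashtag 3, at -0.62).

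Complement and cytokine genes showed differences in each direction. C3, the central complement protein, had 5605, 3832 and 3671 CPM in Pi16 and Clec3b fibroblasts, against 599, 348 and 1300 CPM in Lum-side cells (log2 fold change 2.54 ± 0.30, and 3.33 without hashtag 3). The log2 fold change of C3 ran from 0.70 to 3.33 over 19 alternatives. C1s1 and C1ra, proteases of the classical pathway, rose by 0.86 ± 0.23 and 0.81 ± 0.24. Neither was called without hashtag 3 (0.77 and 0.87), nor C1ra without hashtag 2 (0.63). The call was lost in 6 of 19 alternatives for C1s1 and in 12 of 19 for C1ra, DESeq2 included for each. Intermediate fibroblasts averaged 4340 CPM of C3, 553 CPM of C1s1 and 464 CPM of C1ra. Pi16-high cells averaged 4369, 523 and 401 CPM, so these genes set the Lum-side end apart and not Pi16-high cells from intermediate ones. In all, 3 of 7 complement genes were higher, 2 lower and 2 not called. Among 4 cytokine genes tested, Il33, a nuclear alarmin, had 438, 670 and 515 CPM in Pi16-high cells, against 76.0, 69.6 and 77.1 CPM in Lum-side cells (2.81 ± 0.28). The receptors Il11ra1 and Lifr fell by 1.35 and 1.65 on the log2 scale (Lifr not called with fewer than 3 haemoglobin UMIs). Csf1, the macrophage growth factor, rose by 1.07 ± 0.35 and was not called in 7 of 18 alternatives, among them without hashtag 2 (1.02) or hashtag 3 (0.77).

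Of 14 fibroblast transcription factors tested, 7 were higher, 3 lower and 4 not called. Ebf1 had 1527, 1665 and 1490 CPM in Pi16-high cells, against 422, 417 and 308 CPM in Lum-side cells (log2 fold change 2.04 ± 0.20), and its relative Ebf2 averaged 203 ± 18.1 CPM in Pi16-high and 13.2 ± 3.23 CPM in Lum-side cells (3.80 ± 0.51). Over all cells Ebf2 had 161 CPM in Pi16-high and 27.3 CPM in Lum-side cells, a ratio of 5.89, against 15.3 in the hashtag sums. Klf4, a zinc-finger factor, averaged 554 ± 39.9 CPM in Pi16-high and 98.5 ± 54.4 CPM in Lum-side cells (2.40 ± 0.32, and 3.06 without hashtag 1). Tbx20, a T-box factor of heart development, had 1 UMI in Pi16 and Clec3b fibroblasts and 90 in Lum-side fibroblasts, a ratio of Lum-side to Pi16 and Clec3b fibroblasts of 114 (19.9 to 4532). Its log2 fold change was -6.28, and -7.94 without hashtag 1. Over all cells the ratio was 39.0, with 12 UMIs of Tbx20 in Pi16-high and 358 in Lum-side cells. At equal depth Tbx20 was found in 0.233% of Pi16 and Clec3b fibroblasts, 6.76% of Lum-side fibroblasts and 1.27% of the smooth muscle gate.

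In the lipid and steroid list, 4 of 14 genes were higher, 4 lower and 6 not called. The retinol carrier Rbp4 averaged 64.8 ± 14.0 CPM in Pi16-high and 644 ± 190 CPM in Lum-side cells (log2 fold change -3.30 ± 0.32). Ptgs1, cyclooxygenase 1, averaged 232 ± 11.7 CPM in Pi16-high and 32.0 ± 16.2 CPM in Lum-side cells (2.75 ± 0.39). Immediate early and heat shock genes are known to be induced by enzymatic dissociation. Among the 7 tested, 2 were higher, 1 lower and 4 not called. Egr1 fell by 1.02 on the log2 scale, averaging 244 ± 74.3 CPM in Pi16-high and 513 ± 78.2 CPM in Lum-side cells, and was not called in 6 of 19 alternatives, among them without hashtag 2 (-0.78). Over all cells the ratio of Lum-side to Pi16-high cells was 1.23 for Egr1, against 1.97 in the hashtag sums. Jund rose by 0.62 ± 0.19 (not called in 5 of 19 alternatives, among them without hashtag 2, at 0.50) and Dusp1 by 0.78 ± 0.26 (not called in 9 of 19 alternatives, among them without hashtag 1 or hashtag 3, at 0.57 and 0.77). Of 12 myofibroblast and cytoskeleton genes, only Limch1, an actin regulator, was called (1.21 ± 0.37; 1.89 without hashtag 2, and not called in 6 of 18 alternatives, among them without hashtag 1 or hashtag 3, at 1.01 and 0.88), against 11.6% higher and 10.2% lower over all genes tested. Over all cells the ratio was 4.75 for Limch1, against 2.44 in the hashtag sums. Vim averaged 2269 ± 263 CPM in Pi16-high and 2973 ± 1081 CPM in Lum-side cells and was not called with all hashtags, but was lower without hashtag 3 (-0.66). Over the 18 lists, 198 of 307 genes were tested, with 67 higher and 62 lower, against 11.6% and 10.2% over all genes tested. The lists were chosen with earlier results known, so nothing is read from that.

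Within the Pi16 and Clec3b fibroblasts, cells differed most in Igfbp5, Mgp, Gm42418, which overlaps ribosomal RNA sequence, Apoe and the nuclear RNA Malat1, by variance of residuals from a depth model over 8318 genes. Igfbp5 led with a residual variance of 22.4, against a median of 1.05. Gsn, Mmp3, Igfbp6, Crip1 and Pi16 followed. Mmp3 was found in 21.4% of these cells, with up to 50 UMIs in a cell, and 17 cells held 10 or more. Pi16 ranked at 10, Sema3c at 57 and Clec3b at 61, while Pla1a and Scara5 ranked at 182 and 370. The Pi16 and Clec3b fibroblasts were thus not uniform even in a gene that chose them.

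Over all 1288 fibroblasts thinned to 1000 UMIs, the genes outside the score that ran most closely with the number of the 5 markers detected were Ly6a (Spearman 0.46), Ly6c1 (0.46), Mfap5 (0.45), Fn1 (0.40) and Adamts5 (0.40), among 2680 genes. Mgp (-0.51) and Cst3 (-0.48) ran most strongly the other way. The cells share libraries and the thinned depth, and these correlations are a description.

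Promoter sequence was compared for genes that ran together. RefSeq promoter windows (250 bases before to 50 after the start, build GRCm38.p6) were found for 190 of the higher, 164 of the lower and 1748 of all tested genes. The TATA motif TATAAA, on either strand, was in 28 of 190 windows of higher genes (14.7%), 13 of 164 of lower genes (7.93%), 168 of 1748 of tested genes (9.61%) and 14.2% of all 27025 windows. The AP-1 motif TGANTCA was in 8 of 190 windows of higher and 14 of 164 of lower genes, against 5.55% of tested genes and 7.93% of all. The TEAD motif GGAATG was in 27 (14.2%) of the higher and 30 (18.3%) of the lower genes' windows, against 13.5% of tested genes and 14.6% of all. The windows of Pi16, which names the cells, of Dpp4, with the highest fitted log2 fold change, and of Fmod, with the lowest, are printed 5′ to 3′ on the gene's strand, with any of the 3 motifs in capitals.
Pi16, chr17:29318632-29318931, plus strand: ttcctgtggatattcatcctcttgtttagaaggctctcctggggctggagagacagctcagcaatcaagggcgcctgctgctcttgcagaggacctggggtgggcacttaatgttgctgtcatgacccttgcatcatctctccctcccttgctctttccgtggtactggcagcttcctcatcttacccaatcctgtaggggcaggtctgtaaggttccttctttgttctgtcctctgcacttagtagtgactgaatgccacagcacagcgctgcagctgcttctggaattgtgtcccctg
Dpp4, chr2:62412182-62412481, minus strand: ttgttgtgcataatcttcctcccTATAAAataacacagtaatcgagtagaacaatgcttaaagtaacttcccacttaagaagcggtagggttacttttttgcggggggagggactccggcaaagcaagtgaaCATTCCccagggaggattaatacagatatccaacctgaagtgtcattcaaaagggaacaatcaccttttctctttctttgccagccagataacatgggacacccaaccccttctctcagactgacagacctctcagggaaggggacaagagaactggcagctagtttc
Fmod, chr1:134037004-134037303, plus strand: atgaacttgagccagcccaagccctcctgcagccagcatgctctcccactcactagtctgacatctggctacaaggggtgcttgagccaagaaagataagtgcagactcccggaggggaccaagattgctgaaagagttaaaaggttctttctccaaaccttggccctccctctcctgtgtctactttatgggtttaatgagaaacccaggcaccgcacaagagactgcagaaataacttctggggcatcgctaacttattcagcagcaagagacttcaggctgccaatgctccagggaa
The Dpp4 window holds TATAAA and, on the other strand, GGAATG. The windows of Pi16 and Fmod hold neither of these nor TGANTCA.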

How the data were processed

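The values in the deposited matrix are unnormalized UMI counts, which per the file headers the authors produced with Cell Ranger 6.0.1. The submitters' processing notes name Seurat 4.0.5 and build mm10, and no source used here names the annotation. The other deposited files name barcodes, genes and hashtag ages. The matrix has 32285 gene IDs, of which 32158 matched the gene name table; 38 symbols with several IDs stayed separate.

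Hashtags were called with HTODemux (Seurat 5.3.0, centred log ratio per hashtag, positive quantile 0.99). No doublet caller was run: barcodes with several hashtags stayed out of the tests, and doublets within an animal stay in. UMI counts were summed per hashtag and group (high, middle and low score), giving 9 sums, and tested with edgeR 4.0.16 (R 4.3.3; TMM scaling, filterByExpr with its minimum count of 10, glmQLFit, glmQLFTest), with the hashtag as a block and Benjamini-Hochberg adjustment. Levels of score genes are CPM of total UMIs, and of other genes CPM with TMM scaling. P-values measure the spread between hashtag sums. The pairing comes from the design, since groups with the same hashtag share an animal; the deviations of same-hashtag sums from their group means correlated at -0.0048, -0.0056 and 0.059 over 2242 genes, so the data themselves show no shared animal effect. Exact binomial intervals are at 95%, and the floor for a count of 0 is 3.

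The 15 largest rises and 15 largest falls were named among called genes that changed the same way in 3 of 3 hashtags. Mitochondrial, ribosomal, haemoglobin, Gm and Rik genes were left out of these. Up to 4 called members of each list were named too. Of the most abundant members without a call, only some are named. Gates for background were Acta2, Tagln and Myh11 at 3% or more, Pecam1 and Cdh5 at 3 UMIs or more, or Ptprc at 2 UMIs or more. Members and lists were chosen with earlier results of these data known. Alternatives were other scaling, filters, hashtag callers, cell limits and scores, DESeq2 1.42.0, and leaving out each hashtag. The edgeR fit was tested on simulated data.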

Additional observations from a re-analysis of the deposited data

How the results depend on the processing

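Over 19 alternatives, 58 of 84 named called genes lost no call where they were tested, and 26 lost it in at least 1; 69 moved by more than 1.5 times in at least 1 alternative. Against 259 higher and 228 lower genes, leaving out a hashtag gave 189 to 196 and 151 to 165, DESeq2 147 and 121, and the hashtag caller on the ratio to background 148 lower. At most 10% mitochondrial UMIs with at least 1000 UMIs gave 140 and 112, and put 48.6% of the fibroblasts of hashtag 3 among the Pi16 and Clec3b cells. Fewer than 3 haemoglobin UMIs gave 64 and 61, let 5 score genes pass when left out, and put 40.7% of the fibroblasts of hashtag 2 among the Pi16 and Clec3b cells; these last filters left as few as 8 cells in a sum. Without the replicate block, which pairs the groups of an animal, 284 and 236 genes were called.

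The log2 fold change turned round for Vim with the ratio caller (0.055), for Mmp3 (0.027) and Dusp1 (-0.42) with fewer than 3 haemoglobin UMIs, and for Col3a1 (0.35), Mmp2 (0.27), Igfbp5 (-0.028) and Pdgfra (0.40) with a score of the 5 Pi16-side genes alone. Of these, Mmp3, Dusp1 and Igfbp5 are called with all cells; the cause was not tested. Depth limits the genes with few UMIs, and 349 of 429 Pi16 and Clec3b fibroblasts could not be given to an animal.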
